A study of Mus musculus with 4 samples.

Results

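Liver RNA of aging diabetic mice given astragalus polysaccharide (APS) together with metformin was compared with liver RNA of aging diabetic mice. The comparison rests on 2 of the 4 arrays of the series, assigned to their groups by the labels, 1 array for each group. The other 2 arrays hold liver RNA of aging diabetic mice given metformin and of naturally aging mice, and their levels are given below beside those of the compared pair. All mice were male, were fasted for 12 hours before death, and gave whole liver. Metformin is a biguanide that lowers blood glucose, and APS is a polysaccharide preparation from the root of astragalus, a medicinal legume. The titles carry 60 and the letter d for all samples, and its meaning is not stated. The labels give no strain, age, dose, route or way in which diabetes was brought on, and leave unsaid how many mice each RNA stands for.

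No group was replicated, so no test across animals exists, and every value below describes these arrays. The arrays shared 1 slide and 1 scan, in the red channel (Cy5). A level is the log2 of a spot's processed signal less the 75th percentile of its array, so negative levels are those of spots dimmer than that percentile. A difference is the level on the APS plus metformin array minus that on the aging diabetic array. The ± value after a difference combines the measurement errors that the scanner software gives for the 2 spots and holds no spread between mice. Levels of different genes come from different probes and cannot be set against each other. In whole liver, fewer cells of a type and less RNA per cell cannot be told apart.

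Leaving out controls, an array had 59305 spots. On the APS plus metformin array 60.3% of them were well above background, against 58.8% on the aging diabetic array, and no spot was saturated. As a check of the labelled tissue, all 16 hepatocyte markers with a usable spot were well above background on both arrays. Alb, serum albumin, had a level of 4.12 on the APS plus metformin array and 4.11 on the aging diabetic array, and the 16 markers had a median difference of 0.02.

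The liver of a fasted animal releases glucose and ketone bodies, and insulin shifts it towards glycolysis and the making of fat. Metformin acts on liver mitochondria and on the energy-sensing kinase AMPK and lowers glucose release. Liver cells also make cholesterol under the control of the SREBP2 factor, fold large amounts of secreted protein in the endoplasmic reticulum, and clear steroids and drugs with enzymes whose levels differ between male and female mice.

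The comparison took in 15423 genes, and 677 of them, or 4.39%, were higher on the APS plus metformin array by 2-fold or more. Another 1055, or 6.84%, were at least 2-fold lower. "Higher" and "lower" below refer to this 2-fold limit. The shares of 4.39% and 6.84% over all genes are the background for the list counts below. The median difference was 0.02, and 5% of the genes lay below -1.18 and 5% above 0.95. Past 4-fold, 103 genes were higher and 204 were lower. The measurement error of a difference had a median of 0.165, so most differences past 2-fold are well outside measurement error, while their size relative to the spread between mice is unknown. For genes called on their brightest probe, 322 further probes were well above background on both arrays, of which 84.8% had the same sign and 50.3% were past 2-fold the same way.

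**Figure D1:**
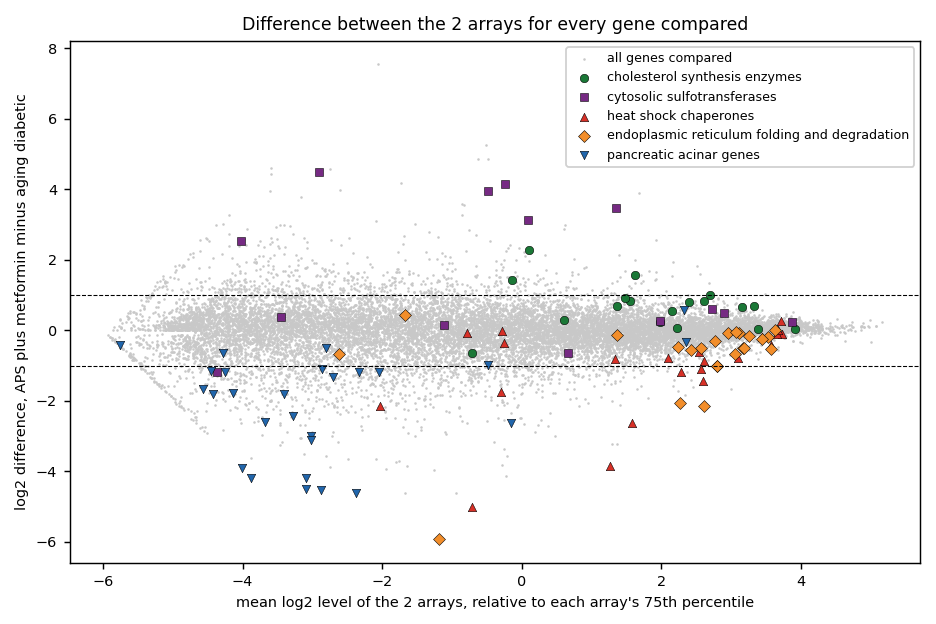
Each grey point is 1 of 15423 genes, with its mean log2 level on the 2 arrays (x axis) and its log2 difference, APS plus metformin minus aging diabetic (y axis). Dashed lines mark 2-fold, and coloured symbols mark members of 5 gene lists. Some heat shock chaperones, endoplasmic reticulum genes and pancreatic acinar genes reach far below the lower line. In the sulfotransferase list 6 of 14 members lie above the upper line and 1 below the lower one, and 4 of 18 cholesterol enzymes lie above the upper line. No error bars are drawn, and points of genes dim on 1 array are bounds.

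Several chaperone genes were lower on the APS plus metformin array. Heat shock chaperones refold damaged protein in the cytosol and are controlled by the factor HSF1. Of 24 listed, 22 were compared, and 8 were lower and 0 higher, with a median difference of -0.79. Hspa1a and Hspa1b, which encode the inducible HSP70 and are near-identical copies that a probe may not tell apart, had the largest differences of the list. Hspa1a had a level of -3.22 on the APS plus metformin array, -1.23 on the metformin array, 1.79 on the aging diabetic array and 1.83 on the natural aging array, a difference of -5.01 ± 0.19. Hspa1b had -0.66, 0.45, 3.19 and 3.75 on the same arrays, a difference of -3.85 ± 0.16. Both genes were thus low on the 2 arrays of treated mice and high on the 2 arrays of untreated mice.

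Chordc1, Hspa4l, Dnajb1, Stip1 and Bag3 were likewise lower on both arrays of treated mice than on both arrays of untreated mice. Chordc1, an HSP90 partner, had levels of -3.11 on the APS plus metformin, -3.22 on the metformin, -0.96 on the aging diabetic and -0.89 on the natural aging array, a difference of -2.15 ± 0.19. Hsph1, a nucleotide exchange factor of HSP70, had 0.26 on the APS plus metformin array and 2.90 on the aging diabetic array, a difference of -2.64 ± 0.16, and the further probe measured on both arrays differed by -3.28. The other 4, which are partners of HSP70 or HSP90, differed by -1.76, -1.43, -1.18 and -1.09. Hsp90aa1 lay within the limit at -0.78, although its further probe gave -1.35. The mitochondrial chaperones Hspd1 and Hspe1, at 0.27 and -0.00, and Hsf1 itself, at -0.09, were within the limit.

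Genes of folding and degradation in the endoplasmic reticulum were the next group. Their products assist secreted proteins or send misfolded ones to the proteasome, and many are targets of the factors ATF6 and XBP1. Of 25 listed, 23 were compared, and 5 were lower and 0 higher, with a median of -0.50. Derl3, a membrane protein of the degradation pathway, had the largest difference between the 2 arrays of any gene measured on both, with levels of -4.14 on the APS plus metformin, -2.60 on the metformin, 1.78 on the aging diabetic and -1.45 on the natural aging array. This was a difference of -5.92 ± 0.25, from 1 probe. It was the aging diabetic array that stood above the other 3 for this gene.

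Creld2, a secreted stress protein, had 1.54 on the APS plus metformin, 2.32 on the metformin, 3.70 on the aging diabetic and 3.65 on the natural aging array. Sdf2l1, an ER chaperone partner, had 1.24, 1.67, 3.31 and 2.90 on the same arrays, a difference of -2.07 ± 0.16. Pdia4, a disulfide isomerase, had 2.30 on the APS plus metformin array and 3.30 on the aging diabetic array, and Syvn1, the ubiquitin ligase of the degradation complex, had 2.30 and 3.31. Hspa5, the main chaperone BiP, had 2.93 on the APS plus metformin array and 3.43 on the aging diabetic array, a difference of -0.50, and its further probes gave -0.90 and -0.74. Of the 23 genes, 22 had a negative difference on the probe used, and the sensor kinase Ern1, at 0.43, was the exception. Further probes did not all go the same way. That of the ER chaperone gene Dnajb11 gave 1.38, while those of Manf and Edem1 gave -0.75 and -0.77. Derl3 is also abundant in secretory cells such as those of the exocrine pancreas. Pancreatic acinar genes, listed further on, were lower at 21 of 27 on the same array. On the natural aging array, where the acinar genes Ctrb1, Prss2, Try4 and Reg1 were highest, Derl3 was at -1.45. The part of acinar genes in the ER gene result was not tested.

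The promoters of 21 of these ER genes were read from RefSeq (GRCm38.p6), 250 bases before to 50 after each start, to show the ER stress element, the paired site bound by NF-Y and ATF6. The motif searched, on both strands, was CCAAT followed after any 9 bases by CCACG, and it was found in 39 of 32851 mouse promoters of this length, or 0.119%. It was found in 9 of the 21. Of the 8 with it that were compared, 3 were lower, and of the 12 without it, 2 were lower. The promoters of the 3 lower genes and of Hspa5 are shown because they carry the element in the genes just described, with the match in capitals. A match is a run of letters and does not show binding, and the lack of an exact match does not show that an element is absent.
Derl3, chr10:75893148-75893447, plus strand: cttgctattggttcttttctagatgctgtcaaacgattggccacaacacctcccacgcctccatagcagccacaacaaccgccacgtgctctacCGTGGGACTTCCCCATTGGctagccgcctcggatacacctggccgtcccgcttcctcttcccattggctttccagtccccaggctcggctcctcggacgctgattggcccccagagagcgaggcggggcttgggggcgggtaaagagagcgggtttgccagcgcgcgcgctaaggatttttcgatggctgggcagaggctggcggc
Creld2, chr15:88819396-88819695, plus strand: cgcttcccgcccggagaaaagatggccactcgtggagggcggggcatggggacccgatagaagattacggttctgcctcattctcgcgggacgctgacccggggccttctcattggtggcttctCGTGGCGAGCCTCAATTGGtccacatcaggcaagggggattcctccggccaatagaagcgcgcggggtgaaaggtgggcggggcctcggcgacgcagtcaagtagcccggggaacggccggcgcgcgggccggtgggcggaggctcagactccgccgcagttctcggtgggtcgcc
Syvn1, chr19:6046326-6046625, plus strand: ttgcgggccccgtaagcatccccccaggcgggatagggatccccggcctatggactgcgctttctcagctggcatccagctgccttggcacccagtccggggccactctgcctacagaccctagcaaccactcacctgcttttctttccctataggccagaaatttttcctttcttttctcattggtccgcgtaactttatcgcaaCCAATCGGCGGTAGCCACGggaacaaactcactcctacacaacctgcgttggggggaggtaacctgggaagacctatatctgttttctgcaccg
Hspa5, chr2:34771840-34772139, plus strand: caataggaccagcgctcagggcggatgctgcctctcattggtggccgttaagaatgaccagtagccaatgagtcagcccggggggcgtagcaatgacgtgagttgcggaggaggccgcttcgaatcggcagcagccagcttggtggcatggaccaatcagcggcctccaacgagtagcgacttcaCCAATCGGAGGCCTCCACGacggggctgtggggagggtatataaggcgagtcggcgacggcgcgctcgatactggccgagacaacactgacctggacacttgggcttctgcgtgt

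The heat shock element, searched as GAA, TTC and GAA each parted by any 2 bases and bound by HSF1, was found on either strand in 198 of 32851 promoters, or 0.603%. It was found in 4 of the 19 chaperone promoters at hand. Of the 4, Chordc1 and Hsph1 were lower and Hspd1 and Hspe1 were not. The promoters of Hspd1 and Hspe1 overlap on opposite strands and hold the same matches. Of the 13 compared without it, 6 were lower, among them Hspa1a and Hspa1b. Only exact matches in this window were sought, so a promoter without a match may still hold an element. The promoters of Chordc1, where 3 overlapping matches lie across the start site, and Hsph1 are shown with the matches in capitals.
Chordc1, chr9:18292017-18292316, plus strand: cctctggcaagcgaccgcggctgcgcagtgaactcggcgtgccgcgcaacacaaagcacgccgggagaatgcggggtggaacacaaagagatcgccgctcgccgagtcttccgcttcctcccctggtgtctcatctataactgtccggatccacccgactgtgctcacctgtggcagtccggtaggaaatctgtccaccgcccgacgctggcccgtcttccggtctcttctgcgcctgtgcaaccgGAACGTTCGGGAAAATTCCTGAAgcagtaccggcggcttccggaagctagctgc
Hsph1, chr5:149636266-149636565, minus strand: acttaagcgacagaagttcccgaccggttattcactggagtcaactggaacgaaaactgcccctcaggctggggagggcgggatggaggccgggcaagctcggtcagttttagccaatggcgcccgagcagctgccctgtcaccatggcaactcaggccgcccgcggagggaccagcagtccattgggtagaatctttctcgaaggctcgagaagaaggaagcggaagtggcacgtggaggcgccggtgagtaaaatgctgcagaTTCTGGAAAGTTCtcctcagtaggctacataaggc

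Among 19 genes of the amino acid starvation response compared, 3 were lower and 1 was higher, with a median of -0.08. The factor ATF4 drives these genes, and Atf4 itself had 3.08 on the APS plus metformin array and 3.07 on the aging diabetic array. Ddit3, the stress factor CHOP, had 0.68 on the APS plus metformin, 1.73 on the metformin, 2.14 on the aging diabetic and 1.17 on the natural aging array. Nupr1, a stress-induced chromatin protein, had -0.48, 1.70, 1.06 and 1.25 on the same arrays, so the APS plus metformin array was below the other 3 for both genes. Psat1, a serine synthesis enzyme, differed by -2.01 on its brighter probe and by -0.11 on the other. Asns, asparagine synthetase, was the gene of the list that was higher, at 1.11 ± 0.17.

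**Figure D2:**
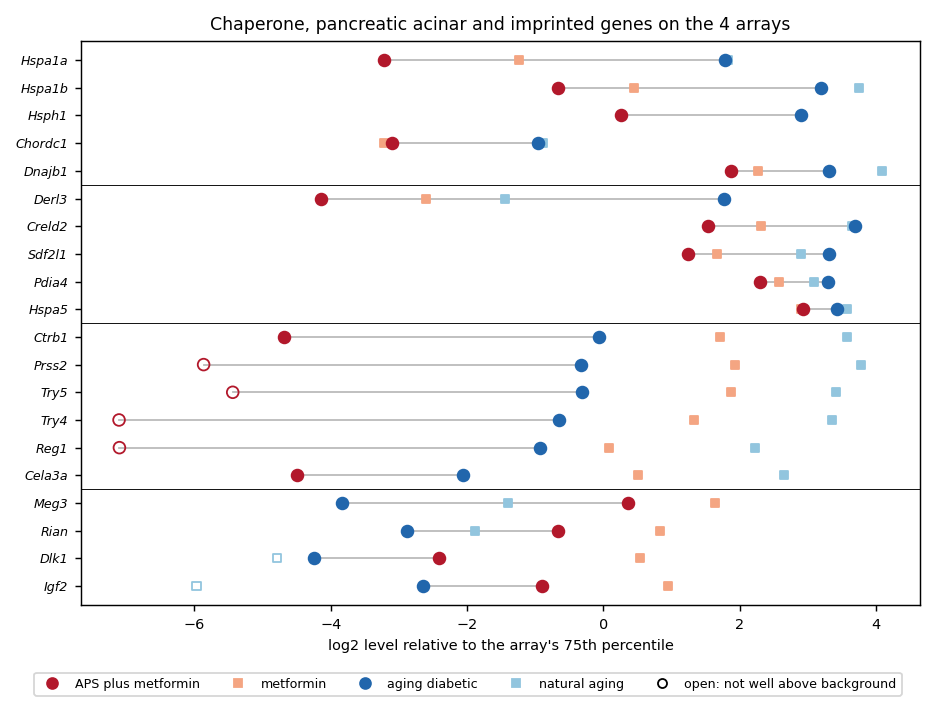
Log2 level of each gene (x axis, relative to the 75th percentile of the array) on the 4 arrays, with large circles for the 2 arrays compared, small squares for the other 2, and open symbols for spots not well above background. The heat shock and ER genes drawn (upper blocks) lie further left on the APS plus metformin array than on the aging diabetic array. The 6 pancreatic genes drawn lie at or below the -4.49 of Cela3a on the APS plus metformin array. The imprinted genes drawn (bottom block) are the 4 of 12 that were higher, and lie further right on it than on the aging diabetic array.

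Several sterol genes were higher. Of 21 cholesterol synthesis enzymes listed, 18 were compared, of which 4 were higher and 0 lower, with a median of 0.69, and 17 of the 18 had a positive difference. Sqle, squalene epoxidase, had 1.25 on the APS plus metformin, 1.65 on the metformin, -1.05 on the aging diabetic and -0.08 on the natural aging array. The aging diabetic array was the lowest of the 4 for this gene. Cyp51 and Msmo1, which demethylate lanosterol and its products, were also higher, by 1.56 for Cyp51 and with levels of 3.20 and 2.20 on the APS plus metformin and aging diabetic arrays for Msmo1. Mvd, a decarboxylase of the mevalonate steps, was the member with a negative difference, at -0.66. Nsdhl and Idi1 had outlier spots and were not compared; with those spots kept they would differ by 1.78 and 0.84.

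Among 11 genes of sterol sensing and LDL uptake compared, 3 were higher and 0 were lower. Insig1, which retains the SREBP complex in the ER, and Srebf2, which encodes SREBP2, differed by 1.24 and 1.03. Scap, which escorts the SREBP proteins, differed by -0.11. LXR targets and bile acid genes held no member past 2-fold among 9 and 19 compared, and Cyp7a1, the first enzyme of bile acid synthesis, differed by 0.38. The sterol element, searched only as exact matches to TCACNCCAC, was found in 1 of 23 sterol gene promoters and in 1.24% of all promoters. The 1 was that of Hmgcs1, whose difference was 0.68. The other promoters may hold elements of other letters or outside the window.

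Genes of fat synthesis were lower at 3 members, and those of its main factors were within the limit. Of 20 genes of de novo lipogenesis listed, 17 were compared, with 3 lower, 0 higher and a median of -0.07. Pnpla3, a lipid droplet protein that SREBP1 and ChREBP induce, had -2.78 on the APS plus metformin, -0.52 on the metformin, -0.22 on the aging diabetic and 0.37 on the natural aging array, a difference of -2.56 ± 0.18. Elovl6, which extends palmitate to stearate, had 0.83, 1.35, 2.49 and 2.60 on the same arrays, a difference of -1.66. Elovl3 differed by -1.06. Srebf1 and Mlxipl, which encode SREBP1 and ChREBP, differed by 0.30 and -0.14, and Acaca, acetyl-CoA carboxylase, by -0.73. A further probe of Acaca had -4.24 on the APS plus metformin array and -3.24 on the aging diabetic array. Scd1 and Fasn, the desaturase and the fatty acid synthase, had outlier spots and were not compared. With those spots kept, Scd1 would stand at 0.06 on the APS plus metformin array and 3.48 on the aging diabetic array, and Fasn would differ by -0.69.

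The gene for the last step of glycolysis was lower. Pklr, liver pyruvate kinase, differed by -1.44 ± 0.17, and had -0.55, -0.56 and 0.69 on the metformin, aging diabetic and natural aging arrays. The metformin array was close to the aging diabetic array for this gene, and the APS plus metformin array was the lowest of the 4. Of 29 genes of glycolysis and glucose uptake compared, 2 (6.9%) were lower and 1 (3.4%) was higher, near the 6.84% and 4.39% over all genes. The higher one was Pfkfb3, which makes an activator of phosphofructokinase, at 1.03. The median was 0.09.

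Glucose production enzymes did not pass 2-fold. G6pc, glucose-6-phosphatase, had 3.52 on the APS plus metformin array and 3.63 on the aging diabetic array, and Pck1, PEP carboxykinase, had 4.16 and 4.04. Ppargc1a, the coactivator PGC-1 alpha, which fasting induces, was the 1 gene of 17 in the gluconeogenesis list that was higher. It had 2.66 on the APS plus metformin, 1.37 on the metformin, 0.97 on the aging diabetic and 1.12 on the natural aging array, a difference of 1.69 ± 0.16, and its further probe gave 2.71. Its relative Ppargc1b had 0.62, -0.84, -1.17 and -1.54, a difference of 1.78 ± 0.17. Both coactivators were thus highest on the APS plus metformin array. Among 23 insulin signalling genes none passed 2-fold, and Irs2 and Igfbp1, which insulin lowers, differed by 0.35 and 0.46.

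Glycogen and lipid storage genes were past 2-fold about as often as all genes. Of 17 glycogen genes 5.9% were higher and 0 lower, and of 29 triglyceride and droplet genes 6.9% were higher and 10.3% lower, against 4.39% and 6.84% over all genes. Ppp1r3g, a subunit that directs protein phosphatase 1 to glycogen, had 2.13 on the APS plus metformin, -1.16 on the metformin, -0.87 on the aging diabetic and 2.21 on the natural aging array, and was the glycogen gene that was higher. G0s2, which inhibits the lipase ATGL, had -1.27, 1.85, 1.63 and 0.06 on the same arrays, a difference of -2.90 ± 0.17. Cidec, which fuses lipid droplets, had -0.18, 1.72, 1.73 and 1.45. For G0s2 and Cidec the APS plus metformin array was the lowest of the 4 and the metformin array was close to the aging diabetic array.

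Lpin1, a phosphatidate phosphatase and partner of PGC-1 alpha, had 3.21 on the APS plus metformin, 0.64 on the aging diabetic and 2.73 on the natural aging array, with an outlier spot on the metformin array. Its difference was 2.57 ± 0.16, and 1.73 on its further probe. Plin4, a lipid droplet coat protein, had 0.97 on the APS plus metformin, 1.06 on the metformin, and -1.37 on the aging diabetic array, a difference of 2.33 ± 0.17. Over the triglyceride and droplet genes the median was -0.13. Plin2, the main droplet coat of hepatocytes, differed by -0.63.

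Genes of fatty acid oxidation held 2 of 39 lower (5.1%, against 6.84% over all genes) and none higher, with a median of 0.04. Crat, carnitine acetyltransferase, had 1.04 on the APS plus metformin, 1.31 on the metformin, 2.16 on the aging diabetic and -0.04 on the natural aging array, and Cpt1b, the muscle form of the carnitine shuttle, differed by -1.13. Cpt1a, the liver form, had 3.36 on both compared arrays. None of the 43 respiratory chain subunits and none of the 11 AMPK subunits and upstream kinases passed 2-fold. Prkaa1 differed by 0.40, and the metformin transporter Slc47a1 by -0.17.

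**Figure D3:**
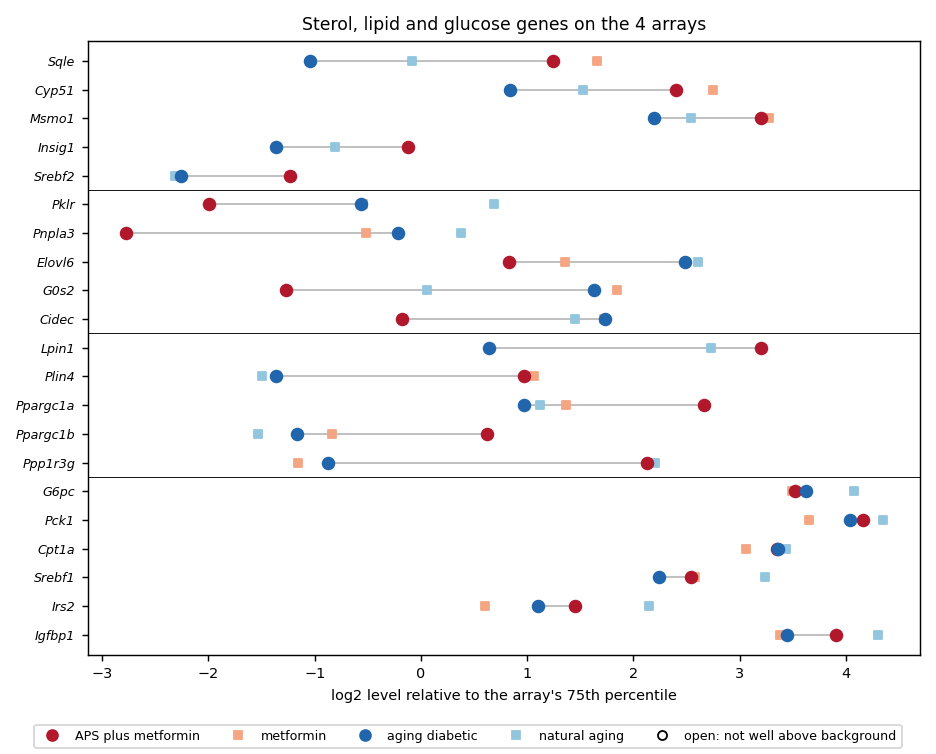
Log2 level (x axis, relative to the 75th percentile of the array) of sterol genes (top block), glycolytic, lipogenic and droplet genes (second block), coactivator and storage genes (block below it) and glucose production and signalling genes (bottom block). Large circles are the 2 arrays compared and small squares the other 2. The sterol, coactivator and storage genes drawn were all higher and lie to the right on the APS plus metformin array. The glycolytic, lipogenic and droplet genes drawn were all lower and lie to the left, and the circles of the bottom block lie within 0.46 of each other.

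Secreted factors of the liver held 3 lower and 0 higher of 26 compared, with a median of -0.11. Inhbe, a subunit of activin E that is made mainly in hepatocytes, had -1.24 on the APS plus metformin, 1.76 on the metformin, 1.23 on the aging diabetic and 0.67 on the natural aging array, a difference of -2.48 ± 0.17. Inhba, the activin A subunit, had -1.43, -0.08, 0.54 and -0.49. Enho, which encodes adropin, had 1.35, 1.23, 2.40 and 2.77. Inhbe and Inhba were lowest on the APS plus metformin array, and Enho was low on both arrays of treated mice. Fgf21, a hormone of the fasted liver, had an outlier spot on the aging diabetic array and was not compared; with the spot kept it would stand at -3.33 on the APS plus metformin array and 0.87 on the aging diabetic array.

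Enzymes that sulfate steroids and bile acids were among the genes with the largest positive differences. The list held 20 genes, cytosolic sulfotransferases and also Papss1, which encodes a PAPS synthase. Of the 20, 14 were compared, with 6 higher, 1 lower and a median of 0.55, or 0.48 without bounds. Bounds made up 3 of the 14, and each entered only through the array where it was bright. The counts thus depend in part on that filter. Sult2a3 had 1.84 on the APS plus metformin and -2.31 on the aging diabetic array, and its natural aging spot was not well above background. Sult2a5 had 1.49 and -2.46 on the 2 arrays compared, a difference of 3.95 ± 0.17. Sult3a1 had -0.26 on the APS plus metformin and 1.16 on the metformin array, and was not well above background on the aging diabetic array, which makes it at least 22.6-fold higher. Sult3a2 was in the same position at -2.23 on the APS plus metformin array. With outlier spots kept, Sult2a1, Sult2a6 and Sult1e1 would differ by 3.03, 3.30 and 1.04, and Sult1d1 and Papss1 by -0.10 and -1.16.

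The Sult2a genes are close copies of each other, so their probes may share signal, and their values are not independent. Sult2a2 and Sult2a4 had 2.76 and 1.42 on the metformin array, and the natural aging spots of Sult2a2 to Sult2a5 were not well above background. Sult1a1, the phenol sulfotransferase, and Sult1b1 differed by 0.22 and 0.28. Sult4a1, a brain form, was dim on the APS plus metformin array and at -3.67 on the aging diabetic array, at least 2.25-fold lower.

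The flavin-containing monooxygenases, which oxidise amines and other compounds, also held members that were higher. Fmo4 and Fmo2 differed by 1.67 and 1.45, and Fmo1 and Fmo5 by 0.04 and 0.17. Mgst2, a microsomal glutathione transferase, had 0.94 on the APS plus metformin, 0.97 on the metformin and -2.66 on the aging diabetic array, a difference of 3.59 ± 0.18, and was the 1 of 20 glutathione transferases that was higher. Gsto2 was the 1 that was lower, at -1.56.

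Of 38 Cyp1 to Cyp3 genes compared, 8 were higher and 3 lower, with a median of 0.27. Cyp2d22 had 1.96 on the APS plus metformin, -2.91 on the aging diabetic and 1.37 on the natural aging array, with an outlier spot on the metformin array, so the aging diabetic array was the lowest of 3. Cyp1a1, the classical target of the aryl hydrocarbon receptor, had -0.54 on the APS plus metformin, -3.64 on the aging diabetic and -4.07 on the natural aging array, and its metformin spot was also an outlier. Cyp1a2, another target, differed by 0.91. Cyp2g1 had 2.04, 0.97, -0.83 and -0.78 over the APS plus metformin, metformin, aging diabetic and natural aging arrays, and Cyp2r1, a vitamin D 25-hydroxylase, had 1.77, 0.77 and -0.26 on the first 3 of these. Cyp2d40 was lower, with 2.16, 2.26, 3.84 and 3.79. Cyp3a11 and Cyp2e1, 2 of the most abundant liver forms, differed by 0.01 and 0.36, and none of 7 xenobiotic receptors passed 2-fold.

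Several of these enzymes belong to the genes that differ between the livers of male and female mice. Of 22 female-biased genes compared, 9 were higher and 0 lower, with a median of 0.63, and of 19 male-biased genes 5 were lower and 0 higher, with a median of -0.08. Atp6v0d2, a proton pump subunit, had -1.81 on the APS plus metformin, -1.15 on the metformin, -4.44 on the aging diabetic and -3.30 on the natural aging array, a difference of 2.63 ± 0.29. Slc22a26 and A1bg differed by 1.12 and 1.09. Among male-biased genes, Susd4, a complement regulator, had -1.30, 1.24, 1.36 and -0.53 over the same arrays, and C6, a complement component, had -0.34, 1.33, 1.15 and 2.56. Several were within the limit: the urinary proteins Mup1, Mup3 and Mup20 differed by 0.04, -0.30 and -0.35, and the female-biased Cyp2b9 and Cyp3a41a by 0.22 and 0.28. All groups were labelled male.

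Growth hormone sets most of this sex bias through the factor STAT5. Of its 13 genes compared, 2 were higher and 0 lower, with a median of 0.57. Cish, a feedback inhibitor that STAT5 induces, had 0.02 on the APS plus metformin, -0.65 on the metformin, -2.07 on the aging diabetic and 1.65 on the natural aging array, a difference of 2.09 ± 0.17. Socs2, another such inhibitor, had 1.19 on the APS plus metformin, -0.18 on the aging diabetic and 2.32 on the natural aging array, with an outlier spot on the metformin array. The aging diabetic array was the lowest of those measured for both. Ghr, the receptor, and Igf1 differed by 0.19 and 0.05.

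**Figure D4:**
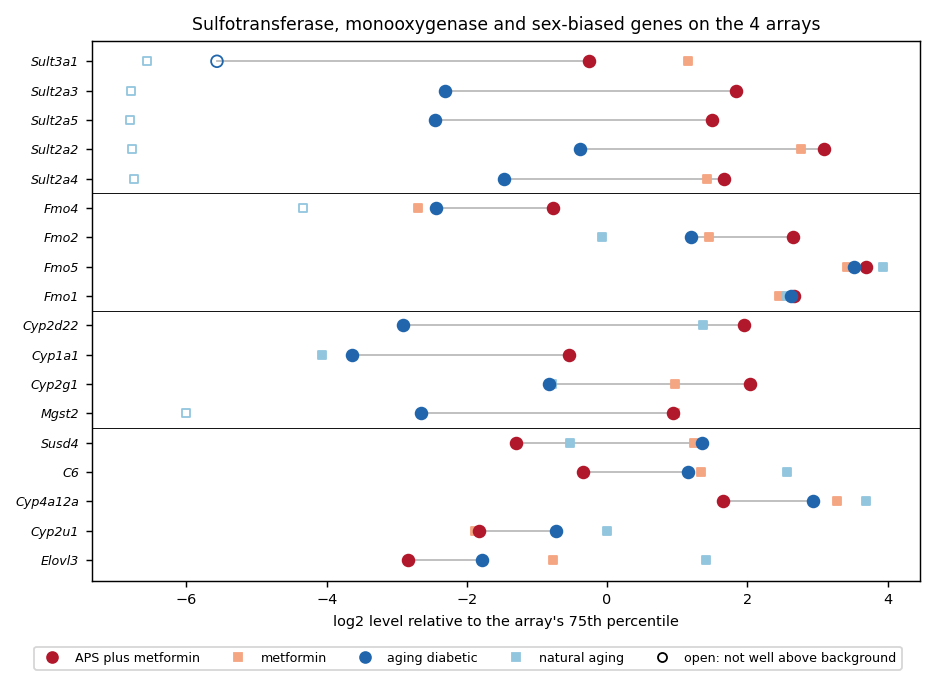
Log2 level (x axis, relative to the 75th percentile of the array) of sulfotransferases (top block), flavin-containing monooxygenases (second block), other detoxifying enzymes (block below it) and male-biased genes (bottom block). Large circles are the 2 arrays compared, small squares the other 2, and open symbols are not well above background. The circles of the Sult2a and Sult3a genes drawn lie far apart, and those of Fmo1 and Fmo5 lie close together. The 5 male-biased genes drawn were all lower and lie to the left on the APS plus metformin array. Over the 19 male-biased genes compared the median was -0.08.

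Hepcidin and 3 genes of its BMP pathway were higher. Hepcidin is the liver hormone that closes iron export, and BMP6 from endothelial cells induces it through SMAD proteins. Hamp, hepcidin, had 3.43 on the APS plus metformin, 2.97 on the metformin, 1.60 on the aging diabetic and -2.75 on the natural aging array, a difference of 1.83 ± 0.16. Id1 and Smad7, direct targets of the pathway, differed by 1.98 and 1.65, and Bmp6 by 1.15. These were the 4 of 23 iron genes that were higher, and 0 were lower. Tfr2, Hfe, the ferritin Fth1 and the exporter Slc40a1 differed by 0.14, 0.01, 0.12 and 0.20. Smad6, another target of the pathway, differed by 0.06.

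Of 12 imprinted genes of fetal growth, all compared, 4 were higher and 0 lower. Meg3 and Rian, non-coding RNAs of the Dlk1 region, and Dlk1 itself were among them. Meg3 had 0.36 on the APS plus metformin, 1.65 on the metformin, -3.83 on the aging diabetic and -1.40 on the natural aging array, a difference of 4.19 ± 0.23. Its further probes had -1.42, -2.48 and -4.26 on the APS plus metformin array and were not well above background on the aging diabetic array. Rian had -0.66, 0.83, -2.88 and -1.89. Dlk1 and Igf2, the fetal growth factor, differed by 1.82 and 1.74, and both were brightest on the metformin array, at 0.53 and 0.95. Of 17 fetal liver and tumour markers compared, 1 (5.9%) was higher and 2 (11.8%) were lower, with a median of 0.10. Gpc3, the higher one, had -0.71 on the APS plus metformin and -2.12 on the aging diabetic array. Krt19 and Tff3, the lower ones, differed by -2.16 and -1.66, and Afp differed by 0.42.

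Markers of the other liver cells were also listed. Stellate cell and matrix genes were higher at 8 of 32 and lower at 0, with a median of 0.59. Pdgfrb, the receptor of stellate cells, had -0.97 on the APS plus metformin, -0.08 on the metformin, -2.61 on the aging diabetic and -0.38 on the natural aging array. Lum, Bgn and Tgfbi, matrix proteins, differed by 1.26, 1.16 and 1.25, whereas Col1a1 and Acta2, which activated stellate cells make, differed by -0.64 and 0.27. For Pdgfrb the aging diabetic array was the low one. Of 23 sinusoidal endothelial markers 2 were higher and 0 lower, with a median of 0.27.

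Macrophage genes split. Marco, a scavenger receptor of Kupffer cells, had -1.32 on the APS plus metformin, -0.37 on the metformin, 1.02 on the aging diabetic and 1.33 on the natural aging array, a difference of -2.35 ± 0.17. Cd163, the receptor for haptoglobin and hemoglobin, had -1.01, -1.10, 0.75 and 1.47. Both were low on the arrays of treated mice. The Kupffer markers Clec4f, Cd5l, Vsig4 and Timd4 differed by -0.55, 0.00, 0.13 and 0.07. Over the 17 Kupffer markers compared 2 (11.8%) were lower and 1 (5.9%) higher, against 6.84% and 4.39% over all genes. Of 18 genes of recruited monocytes and macrophages compared, 4 were lower and 0 higher, with a median of -0.21, or -0.04 without bounds, and 8 had a positive difference. Chil3, Fabp5 and Ms4a7 differed by -2.14, -1.57 and -1.41, and Spp1 and Itgam, of the same list, by 0.54 and 0.32. Neutrophil genes went both ways, with 3 of 16 lower, 1 higher and 8 positive. Their median was -0.10, or 0.03 without the 4 bounds. Of the lower ones, Elane and Ltf were bounds that entered only through the aging diabetic array. Camp, a granule protein measured on both arrays, differed by -2.40.

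Interferon-stimulated genes were lower at 7 of 29 and higher at 0, with a median of -0.45, or -0.33 without bounds. Of the 29, 25 had a negative difference. The 2 bounds, Ifi44l and Oas2, are among the 7. They were dim on the APS plus metformin array and entered only through the aging diabetic array. Isg15, a ubiquitin-like protein, had 1.09 on the APS plus metformin, 2.94 on the metformin, 2.13 on the aging diabetic and 1.44 on the natural aging array. Gbp6 and Irgm1, GTPases of cell defence, differed by -1.63 and -1.19. The transcription factor Irf9 had 1.12 on the APS plus metformin array and 2.12 on the aging diabetic array, and Irf7 differed by 0.27. For Isg15 the metformin array was the highest and the APS plus metformin array the lowest of the 4.

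Of 27 chemokines and cytokines compared, 6 were higher and 2 lower. Bounds made up 4 of the 27, and these entered only through the APS plus metformin array. Ccl19 and Ccl21a, ligands of CCR7, had -0.35 and 0.33 on the APS plus metformin array, against -3.02 and -1.92 on the aging diabetic array. On the natural aging array they stood at -0.95 and -0.61. Cxcl13, which draws B cells, differed by 1.44, and Il1b by 1.17. Ccl3 and Ccl4, which draw macrophages and other leukocytes, had -4.79 and -3.64 on the APS plus metformin array, against -2.15 and -1.47 on the aging diabetic array. Of 18 T, NK and B cell genes compared 3 were higher and 0 lower, Nkg7 and Jchain each by 1.35.

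Pancreatic acinar genes, listed as markers of the exocrine pancreas, were lower at most members compared. Of 34 listed, 27 were compared, with 21 lower (77.8%), 0 higher and a median of -1.79, or -1.19 over the 15 measured on both arrays. All 27 were well above background on the aging diabetic array, and 15 of them also on the APS plus metformin array. The other 12 are bounds and entered the comparison only through the aging diabetic array. The counts of detected and of lower members thus depend in part on that filter. Ctrb1, chymotrypsinogen, had -4.69 on the APS plus metformin, 1.72 on the metformin, -0.06 on the aging diabetic and 3.58 on the natural aging array. The trypsinogens Prss2 and Try4 and the secreted Reg1 were not well above background on the APS plus metformin array and were at least 22.9-fold, 18.3-fold and 15.1-fold lower. For these 4 genes the order of the arrays was natural aging highest, then metformin, then aging diabetic, then APS plus metformin.

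The summed signal of the 27 acinar genes was 12.7 times the 75th percentile on the APS plus metformin array and 20.7 times on the aging diabetic array, and without Amy2a5 and Cela1 it was 1.97 and 10.8 times. Amy2a5 had 2.61 on the APS plus metformin array and 2.05 on the aging diabetic array, and Cela1 2.20 and 2.52. Prss1, Pnliprp2, Rnase1, Cuzd1 and Ptf1a were not well above background on either array. Of the pancreatic islet genes, 3 of 9 were compared and none passed 2-fold, and Gcg, Sst, Ppy, Iapp, Chga and Pdx1 were not above background on either. Genes such as Bhlha15 (-3.10) and Derl3 that acinar cells also use were lower in the same direction. Whether pancreas tissue in the liver pieces accounts for these values was not tested.

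**Figure D5:**
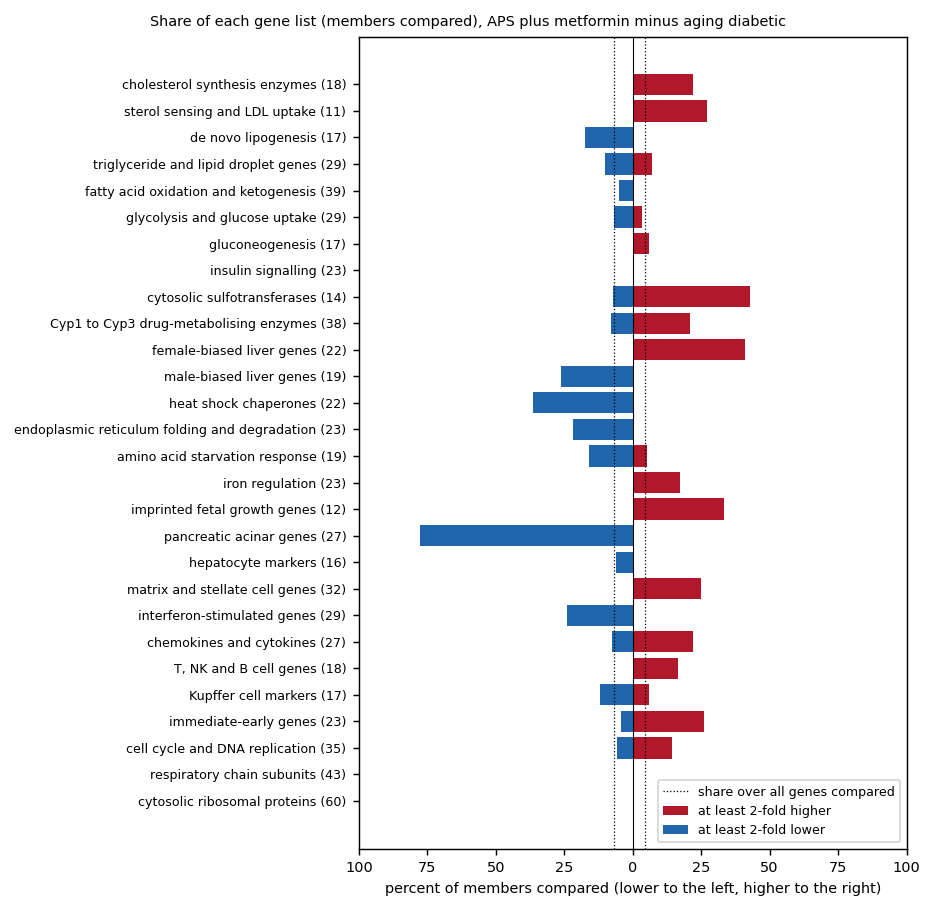
For 28 gene lists, bars give the percent of the members compared (number in parentheses) that were at least 2-fold higher (right) or lower (left) on the APS plus metformin array than on the aging diabetic array. Dotted lines mark the shares over all genes, 4.39% and 6.84%. Acinar genes, 12 of 27 of them bounds, reach 77.8% to the left. The sulfotransferase list, with 3 bounds among 14, reaches 42.9% to the right. The insulin signalling, respiratory chain and ribosomal lists have no bar.

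Stress and growth genes gave smaller groups. Of 23 immediate-early genes compared, 6 were higher and 1 lower, with Myc at 1.74, Klf4 at 1.48 and Fos at 1.24. The lower one, Egr3, was dim on the APS plus metformin array and is a bound. Of 23 targets of p53 and senescence genes, 5 were lower and 1 higher, with a median of -0.33. Cdkn1a, which encodes the cell cycle inhibitor p21, had 0.11 on the APS plus metformin, 1.63 on the metformin, 1.15 on the aging diabetic and 0.45 on the natural aging array. Cdkn2b, Gadd45a and Bbc3 differed by -1.33, -1.14 and -1.02, and Trp53 itself by -0.67. Of 35 cell cycle genes, 5 were higher and 2 lower, among them Cdt1 and Ccne1 at 1.99 and 1.60 and Mcm2 at -1.99, while Mki67, a marker of dividing cells, differed by 0.17.

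Some of the largest differences fell outside these groups. Dio1, which removes iodine from thyroid hormone, had -3.56 on the APS plus metformin, -1.77 on the metformin, 0.28 on the aging diabetic and 1.05 on the natural aging array, a difference of -3.84, and its further probes gave -5.04 and -1.46. Serpina7, the thyroxine carrier of plasma, had -0.25, 1.63, 2.99 and 1.40. Both were lowest on the APS plus metformin array. Rtp3, a liver receptor transporter, Dmbt1, a mucosal defence protein, and Bmp8b differed by -3.95, -4.13 and -3.87, each on 1 probe. Lepr, the leptin receptor, had -0.19 on the APS plus metformin, -3.31 on the metformin, 1.05 on the aging diabetic and -0.50 on the natural aging array.

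Among the genes that were higher, Tob2, an antiproliferative regulator, had 2.79 on the APS plus metformin array and was not well above background on the aging diabetic array, at least 187-fold higher. It stood at 2.55 and 2.73 on the metformin and natural aging arrays, so the aging diabetic spot stood alone. Smad9 and Zyg11b, also dim on the aging diabetic array alone, were at least 23.8-fold and 21.8-fold higher. Cenpm, a centromere protein, had 2.12 on the APS plus metformin, 2.08 on the metformin, -3.14 on the aging diabetic and -0.95 on the natural aging array. B4galnt1, which makes gangliosides, differed by 4.86, with 2.31 on the further probe measured on both arrays. Each of these rests on 1 spot a probe, and for Wnt11 the brighter probe gave 3.02 and the other 0.09.

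Broad functions of the hepatocyte were close to level. None of 36 urea cycle and amino acid genes, 18 periportal genes, 60 ribosomal proteins, 31 proteasome subunits, 28 autophagy genes, 19 apolipoprotein genes or 11 glucuronosyltransferases passed 2-fold. Their list medians lay between 0.01 and 0.25. Of 31 complement and coagulation genes, C6 was the 1 that was lower, and none was higher.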

How the data were processed

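The deposited array files hold spot intensity. Per the file headers it comes from Agilent Feature Extraction 11.5.1.1, with background subtraction and detrending inside an array; the submitters' processing notes give version 10.7. Per the file headers, other deposited columns used were an error of the processed signal, median signals of spot and local background, and flags of 0 or 1 for detection, saturation and outliers. A deposited table of the series has log2 values, normalized by the authors in a way not given in the sources used here. Its columns have equal medians of 7.84, so the arrays are centred alike, and match their own arrays at r = 0.999 or above.

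The log2 of the processed signal less each array's 75th percentile was taken in Python 3.11.15 with numpy 2.4.6 and pandas 2.3.3. Outlier spots were left out, after which 775 of 23462 matched genes had no usable probe. Transcript accessions were matched without their version to RefSeq gene symbols: 33767 probes matched and 22838 did not. The brightest probe over both arrays stood for a gene. Genes well above background on neither array were not compared. Where 1 array was dim, the lowest level counted as measured there (log2 -4.84 on the APS plus metformin array and -4.75 on the aging diabetic array), or the dim level if higher, replaced it, which made 1319 differences bounds. With 1 array a group no test was run, and the number of arrays limits the precision. Probes spotted 10 times had a median SD of 0.06 on the APS plus metformin array and 0.066 on the aging diabetic array.

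The comparison, the 69 gene lists, the 2-fold limit and the rule for named genes were chosen with earlier results of these data known, so no list is independent evidence. The rule takes, in either direction, the 15 largest measured differences and the top 5 bounds, then as many as 4 members past 2-fold of any list, and 20 fixed genes. Members printed beyond it were chosen after their values were seen, and some genes that it names are not reported here. The steps were tested on simulated data. Alternatives used R 4.3.3 with limma 3.58.1 for cyclic loess and for normexp (offset 50), which ran on the median signals in place of the planned mean signals. Promoters came from a RefSeq table of GRCm38.p6.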

Additional observations from a re-analysis of the deposited data

Results flagged for a closer look

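Probes that matched no gene symbol were not part of the comparison. Of 10623 such probes well above background on at least 1 of the 2 arrays, 602 (5.67%) were at least 2-fold brighter on the APS plus metformin array and 727 (6.84%) were at least 2-fold dimmer, with a median difference of 0.12. The files give no gene for them, and they were not analysed further.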

How the results depend on the processing

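No paired analysis was possible because each group has 1 array, and for the same reason no replicate could be left out. Without the filter on detection the count of higher genes was 1139, against 677, while the count of lower genes was 1571, against 1055. Over the other 9 alternatives the counts lay between 476 and 721 higher and between 863 and 1227 lower. The lowest count of higher genes came with normexp background correction, and the highest count of lower genes with cyclic loess, where 32.2% of calls were higher, against 39.1%. The list of pancreatic islet genes, of which 3 were compared, had a median of 0.25 and turned to -0.0035 without the filter. The median of the pancreatic acinar genes, -1.79, was -1.22 with normexp and -1.19 over genes detected on both arrays. The median of the sulfotransferase list, 0.55, was 0.80 with all detected probes averaged and 0.37 with probes usable on all 4 arrays. No named gene with a value changed direction, which covers 173 genes under 8 alternatives, 153 under detection on both arrays and 159 under probes usable on all 4 arrays. With normexp 70 of the 173 moved by more than their measurement error, and with probes averaged 23 did. Of the 159 past 2-fold, 13 were under it with normexp and 5 with cyclic loess. The requirement that a probe be usable on all 4 arrays was added after seeing the data, and gave 650 higher and 1024 lower. Dim spots limit the bounds, and the spread between mice is not measured.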

Other observations

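Of 21 clock genes compared, 4.8% were higher and 9.5% lower, near the 4.39% and 6.84% over all genes, with a median of -0.01. Ciart, a repressor of the clock, had 1.42 on the APS plus metformin, -0.20 on the metformin, -0.73 on the aging diabetic and -0.38 on the natural aging array, a difference of 2.15 ± 0.16. Per2, another repressor, had -1.25, -0.45, 0.08 and 0.73 on the same arrays, and Arntl, the activator BMAL1, had -2.83 on the APS plus metformin and -1.64 on the aging diabetic array. Dbp and Nr1d1, outputs of the clock, differed by -0.14 and -0.01, and Per1 by 0.08. The labels give no time of death.

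Pericentral genes that depend on Wnt signals held 1 higher and 1 lower of 22 compared, with a median of 0.35 and a positive difference in 21. Znrf3, a ligase that removes Wnt receptors, had -2.58 on the APS plus metformin, -3.19 on the metformin, -4.62 on the aging diabetic and -2.72 on the natural aging array. Cldn2, a tight junction protein, was the lower one, with 0.44 on the APS plus metformin array and 1.69 on the aging diabetic array. Axin2, Sp5 and Nkd1, feedback targets of the pathway, differed by 0.81, 0.94 and 0.87. Bile duct markers held 2 lower of 11 (18.2%, against 6.84% over all genes), Krt19 at -2.16 and Muc1 at -1.72. Epcam, Sox9 and Krt7 differed by -0.31, 0.10 and 0.33. Cyp26a1, which breaks down retinoic acid, had 1.31 on the APS plus metformin, 1.25 on the metformin, -0.32 on the aging diabetic and 0.44 on the natural aging array.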
